A study of Mus musculus with 7 samples.

Results

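Krüppel-like factors bind GC-rich and CACCC-type elements with a conserved set of carboxyterminal zinc fingers and differ mainly in the aminoterminal region, through which they recruit coactivators or corepressors. The relatives of Klf13 that contact the SIN3 corepressor are Klf9, Klf10, Klf11, Klf13, Klf14 and Klf16. The genes described here are 9 of the remaining family members, namely Klf2, Klf3, Klf4, Klf5, Klf6, Klf7, Klf8, Klf12 and Klf15. They were taken by gene symbol from the 49315 genes of the count tables, by a rule that uses no measured value. The list was nevertheless chosen with earlier results of these data known. All 9 passed the filter on low counts, whereas Klf1 and Klf17, which are not on the list, did not. By their partners, Klf3, Klf8 and Klf12 are repressors that bind the corepressor CtBP, Klf2, Klf4, Klf5, Klf6 and Klf7 act mostly as activators, and Klf15 stands by itself as a glucocorticoid-induced regulator of amino acid and glucose metabolism. In oligodendrocytes, Klf6 is known as a target of gp130 and STAT3 signalling that is needed for myelination. The question addressed by the comparison is which of these genes differ in expression once Klf13 is missing.

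RNA was sequenced from 7 primary mouse oligodendroglial cultures, 4 from wildtype controls (genotype Klf13-wt) and 3 from Klf13 knockouts (Klf13-ko), each as 1 library. By the methods of the study, cultures were prepared from brains of newborn mice of both sexes, although knockout replicate 3 held almost no counts on Y-linked genes. They went through a mixed glial stage with shake-off of precursors and depletion of microglia, and were then held for 6 days in SATO medium with thyroid hormones. The knockout is constitutive and affects every cell type of the animal, so that cells other than oligodendroglia in a culture lack Klf13 as well. The labels call the libraries biological replicates without saying whether pups or litters were shared, and p-values measure only the spread between these cultures.

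The libraries held between 24507471 and 59596479 counts on genes. Values below are normalized counts, which are counts corrected for the TMM-scaled size of each library and brought to the average size. Klf13 itself, in order of replicates, was at 10920, 11770, 12000 and 10670 normalized counts in controls and at 802, 876 and 961 in knockouts. The oligodendroglial markers Sox10, Olig1, Olig2, Cspg4 and Pdgfra were abundant in every library, with a summed level of 2600 to 3000 CPM (counts scaled to a common library total) in the controls and 2430 to 2880 in the knockouts, and 0 of these 5 passed the test described below. Olig1, Pdgfra and Sox10, the most abundant, had log2 fold changes of -0.10, 0.07 and -0.31. All 8 markers of myelinating oligodendrocytes fell, with sums of 22500 to 26700 CPM in the controls and 6110 to 6920 CPM in the knockouts, among them Mbp (log2 fold change -1.78), Cnp (-0.96) and Mobp (-3.35). Control replicates 3 and 4 stood apart by their markers of fibroblasts and mural cells, which summed to 1800 and 1450 CPM against 555 and 441 CPM in control replicates 1 and 2 and 203 to 457 CPM in the knockouts. Control replicate 3 also had the highest sum of 14 microglia and macrophage markers, at 2950 CPM against 675 to 1420 CPM in the other 6 libraries.

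Of the 9 Klf genes, Klf12 and Klf8 rose in the knockout, 1.53-fold and 1.84-fold, and Klf2 fell, 2.60-fold from a low level. The other 6 did not reach the threshold, which was an adjusted p of 0.05 (Benjamini-Hochberg, over 18352 tested genes) from the quasi-likelihood F test of edgeR with group as the only term. A separate fit with the replicate number as a block, described below, ended the call of Klf2 and added Klf3 and Klf6. Among all genes tested, 11.6% were higher and 12.2% were lower at this threshold, against 2 and 1 of the 9 Klf genes. When a log2 fold change of 1 or more in either direction was required too, 0 Klf genes were called higher and 1, Klf2, was called lower, where 3.97% and 3.08% of all genes were called. Controls and knockouts were fully separated for 3 Klf genes that were higher and 2 that were lower, whereas 18.3% and 18.0% of all genes were higher and lower without overlap. The median log2 fold change of the 9 genes was -0.28, beside -0.004 for all tested genes. Counts this small cannot be set apart from the background shares, and nothing particular to the 9 genes was read from them.

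**Figure D1:**
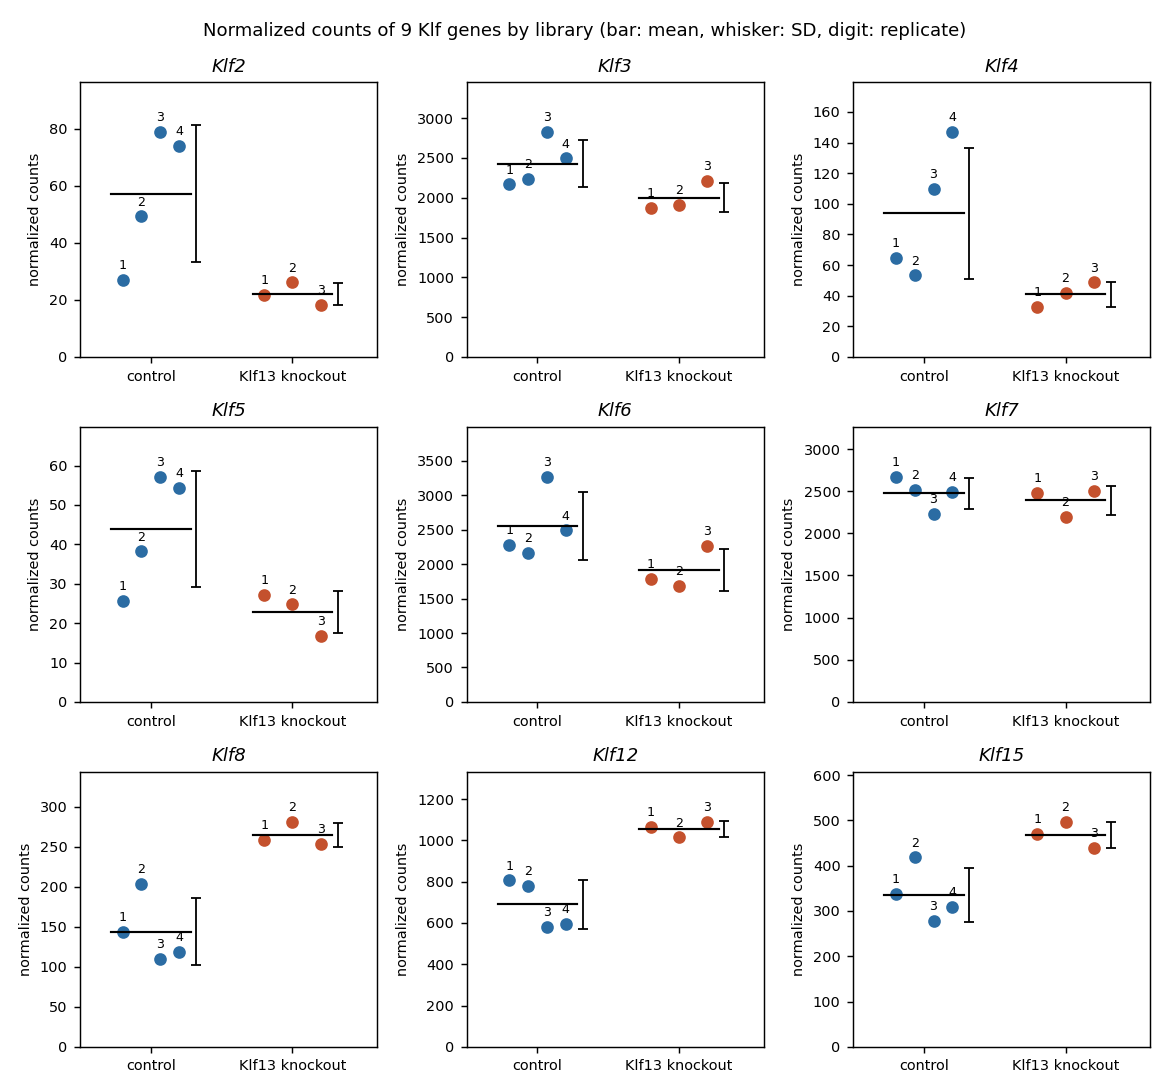
Normalized counts (vertical axis, from 0) of the 9 Klf genes in the 4 control libraries (blue) and the 3 Klf13 knockout libraries (red), with the replicate number at each point, a line at the mean and a whisker of 1 SD. Klf8, Klf12 and Klf15 lie higher in all knockout libraries than in any control, Klf2 and Klf4 lie lower, and in Klf2, Klf4 and Klf5 the controls spread widely with replicates 3 and 4 on top.

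Because the missing factor and all of these genes' products recognize related elements, the promoters of the genes were searched for the Klf motif given in the study's methods. It consists of A or C, then C, then A or G or T, then CCC, which makes 6 hexamers, and it was searched on both strands with overlapping matches counted separately. One of the hexamers is the reverse complement of the GC box GGGCGG, so that these matches coincide. RefSeq promoters on GRCm38.p6 were found for 8 of the 9 genes, for Klf8 with 2 start sites, and the 250 bases before each start were used. The motif was present in all 9 of these promoters and in 72.6% of 32841 promoters of the same length, with a median of 1 match per promoter. The number of matches was 14 in Klf3, 9 in Klf7, 6 in Klf4, 5 at either start of Klf8, 3 in Klf2 and 2 each in Klf6, Klf12 and Klf15. The promoter of Klf13 had 5. Klf12 with 2 and Klf8 with 5 matches per promoter rose, and Klf2 with 3 fell. Klf3 with 14, Klf7 with 9, Klf4 with 6 and Klf6 and Klf15 with 2 each did not pass the test. Whether matches and changes are related was not tested. A match describes letters and not binding. The GC content was 71.2% in the promoter of Klf2, 78.4% in Klf3, 74.0% in Klf4, 64.8% in Klf6 and 59.2% in Klf7. It was 54.8% and 62.0% at the 2 starts of Klf8, 48.0% in Klf12 and 72.0% in Klf15. The median for all promoters was 52.4%. The 60 bases richest in the motif are shown for the 3 genes that passed the test and for Klf3, which had most matches, 5′ to 3′ on the strand of the gene with the motif in capitals. They lie at chr8:72318813-72318872 (plus strand, Klf2), chrX:153237529-153237588 and chrX:153359446-153359505 (plus strand, both starts of Klf8), chr14:100149987-100150046 (minus strand, Klf12) and chr5:64803295-64803354 (plus strand, Klf3).
Klf2: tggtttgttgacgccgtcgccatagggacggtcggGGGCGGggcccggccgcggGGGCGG
Klf8, first start: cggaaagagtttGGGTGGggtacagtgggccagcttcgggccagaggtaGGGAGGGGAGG
Klf8, second start: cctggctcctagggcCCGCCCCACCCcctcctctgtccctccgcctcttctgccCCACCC
Klf12: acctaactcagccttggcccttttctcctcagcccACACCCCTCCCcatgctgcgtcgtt
Klf3: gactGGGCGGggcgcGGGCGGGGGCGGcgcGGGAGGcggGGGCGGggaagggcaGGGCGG

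To compare levels between genes, CPM were also divided by the exon length in kilobases given in the count tables (RPKM). In the controls Klf6 had the highest level of the 9 genes, with 13.8 ± 2.68 RPKM (SD, n = 4), followed by Klf12 with 8.46 ± 1.46, Klf7 with 6.93 ± 0.516, Klf3 with 4.92 ± 0.607 and Klf15 with 2.74 ± 0.489. Klf2, Klf4, Klf8 and Klf5 formed a low group, at 0.706, 0.699, 0.628 and 0.579 RPKM, in which the ranges of neighbours overlapped. The ranges of Klf12 and Klf7 overlapped as well, whereas all other neighbours in this order were apart in the 4 controls. For comparison, Klf9 and Klf13, the leading SIN3-interacting members, had 53.2 ± 6.15 and 34.3 ± 1.95 RPKM in the controls, although the exons of Klf9 span 3263 bases in the count tables and 4815 bases in GENCODE M21, and Klf13 had the higher normalized counts.

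In the knockouts the order at the top was turned. Klf12 was first with 12.4 to 13.4 RPKM and Klf6 second with 9.11 to 12.3 RPKM, whereas Klf6 with 11.7 to 17.6 RPKM was above Klf12 with 7.12 to 9.88 RPKM in the controls. Klf8 moved from the eighth to the sixth place, with 1.15 ± 0.0657 RPKM (SD, n = 3), above Klf4, Klf5 and Klf2 without overlap. Without regard to length, the 9 genes summed to 192 to 217 CPM in the controls and 175 to 201 CPM in the knockouts, and the 6 SIN3-interacting genes, Klf13 included, to 442 to 483 CPM and 202 to 223 CPM. The place of Klf12 and Klf5 in these orders rests on the gene model used. Their exons in the count tables span 1856 and 1721 bases, but 6985 and 5201 bases in GENCODE M21, while Klf2, Klf3, Klf4, Klf7, Klf8 and Klf15 have the same span in both. Counts on the longer models were not analysed here, so that the crossing of Klf12 and Klf6 is given for the deposited gene models, whereas the rise of Klf12 itself does not involve its length.

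**Figure D2:**
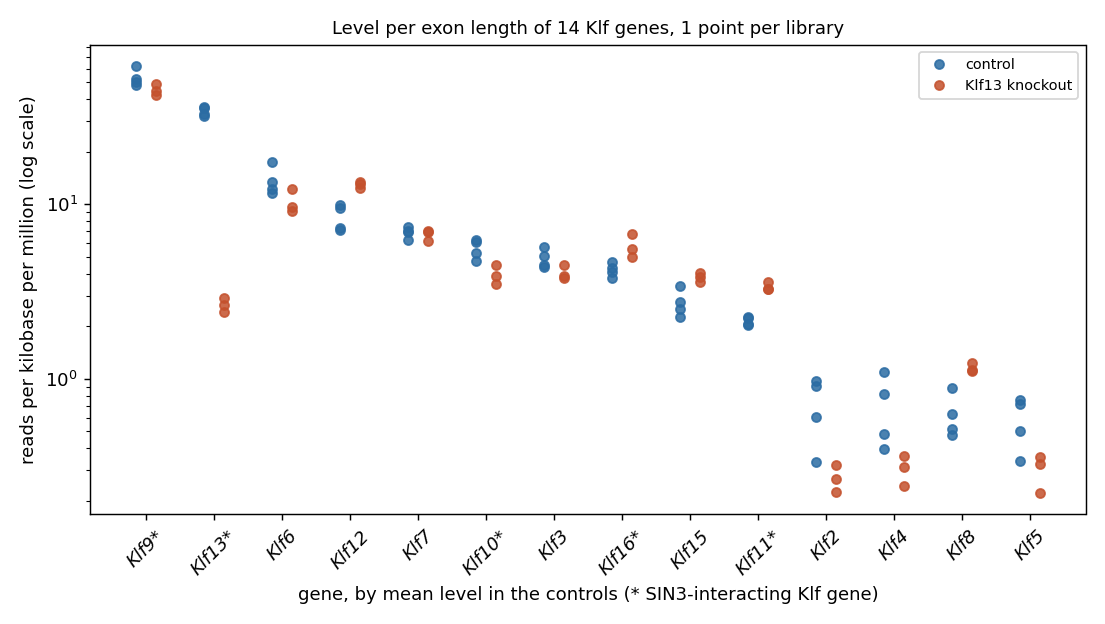
Level per exon length (vertical axis, RPKM on a log scale) of the 9 Klf genes and of 5 SIN3-interacting Klf genes (marked with an asterisk), ordered by their mean in the controls, with 1 point per control (blue) or Klf13 knockout (red) library. On the deposited gene model Klf12 passes Klf6 in the knockout libraries, and Klf8 leaves the group of low genes upwards. The mean levels of Klf2, Klf4 and Klf5 are lower, of which only Klf2 passed the test, and the libraries of Klf5 overlap.

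Klf12 (ENSMUSG00000072294), a CtBP-binding repressor known for silencing the gene of the transcription factor AP-2 alpha, lies on chromosome 14 of GRCm38 from 99874486 to 100149764 on the minus strand. Replicates 1 to 4 of the controls gave 806, 778, 581 and 594 normalized counts, replicates 1 to 3 of the knockouts 1065, 1014 and 1090. All knockout libraries were above all controls, and the knockouts varied less (SD 38.8) than the controls (SD 119), among which replicates 3 and 4 were lowest. On the log2 scale the difference was 0.62 ± 0.13 (standard error, n = 4 and 3, adjusted p = 0.0168, edgeR). Among the 9 genes only Klf12 passed this threshold in each of 17 alternative settings, with adjusted p from 0.00105 to 0.0494 in the tests of edgeR, DESeq2 and limma. When control replicates 3 and 4 were both left out, which was decided after seeing the data, its log2 fold change was 0.41 (adjusted p = 0.0237, edgeR).

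Klf8 (ENSMUSG00000041649), the CtBP-binding member known as a regulator of cell motility, lies on the X chromosome from 153237466 to 153396132 on the plus strand. Controls gave 143, 203, 110 and 119 normalized counts, and knockouts gave 258, 281 and 253. The highest control, replicate 2, remained below the lowest knockout. Klf8 rose by 0.88 ± 0.22 on the log2 scale (standard error, adjusted p = 0.0266, edgeR). The log2 fold change stayed between 0.77 and 1.09 when each library was left out, but the adjusted p in edgeR was 0.0515, 0.0627, 0.0902 and 0.0540 without control replicate 4 or without knockout replicate 1, 2 or 3, and 0.0906 with control replicates 1 and 2 only, where the log2 fold change was 0.60. Over the 17 alternative settings the adjusted p ran from 0.00229 to 0.0906. The Y-linked gene Eif2s3y, a marker of male cells that was chosen after its values were seen, gave 801, 840, 194 and 353 normalized counts for controls, in the same order of libraries as Klf8, and 1237, 447 and 3.81 for knockouts, in an order different from that of Klf8. Xist, which is transcribed from the inactive X chromosome of female cells, gave 33190, 26590, 31930 and 34850 for controls and 20310, 31800 and 60420 for knockouts. Among the controls Xist was lowest in replicate 2, where Klf8 was highest, but it was highest in replicate 4, whereas Klf8 was lowest in replicate 3. In the knockouts Xist ran from 20310 to 60420 and Klf8 only from 253 to 281. The part of the sex of the animals in the values of the X-linked Klf8 was not tested.

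Klf3 (ENSMUSG00000029178), the third CtBP-binding member and a repressor in erythroid and fat cells, lies on chromosome 5 from 64803388 to 64832901. Normalized counts were 2167, 2233, 2828 and 2494 for controls against 1874, 1914 and 2210 for knockouts. Knockout replicate 3 lay within the range of the controls. The difference of -0.28 on the log2 scale (95% interval -0.54 to -0.03) did not pass the threshold (adjusted p = 0.106, edgeR). With the replicate number as a block, a fit to which control replicate 4 adds nothing, the value was -0.26 and passed (adjusted p = 0.0399, edgeR), the lowest of the 17 alternative settings, which reached up to 0.377. An antisense gene, Gm20033, shares 404 exonic bases with Klf3, and since the strand setting of the counting is not given, reads from there cannot be assigned to one of the strands. Gm20033 had 239 counts in all 7 libraries together.

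The corepressor genes themselves were part of a list of 11 Klf partners and upstream regulators, of which 2 rose, 1 fell and 8 did not pass. Ctbp2 rose from 1536 ± 205 normalized counts (SD, n = 4) to 2417 ± 167 (SD, n = 3), or by 0.66 on the log2 scale (adjusted p = 0.00732, edgeR). The more abundant Ctbp1 was at 12120 ± 1120 and 12320 ± 1520 normalized counts. Fbxw7, a subunit of the ubiquitin ligase that marks Klf5 and other proteins for degradation, rose with a log2 fold change of 0.62 (adjusted p = 0.00207, edgeR). Kat2b, which encodes the acetyltransferase PCAF, fell with a log2 fold change of -0.55 (adjusted p = 0.00315, edgeR). The acetyltransferase genes Ep300 and Crebbp had values of 0.10 and 0.12 and did not pass. Mef2c, for a MEF2 factor (this family induces Klf2 and Klf4 in endothelial cells), had the largest value of the list at 0.74 but spread widely among the controls (1176 ± 613 normalized counts, adjusted p = 0.188, edgeR).

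**Figure D3:**
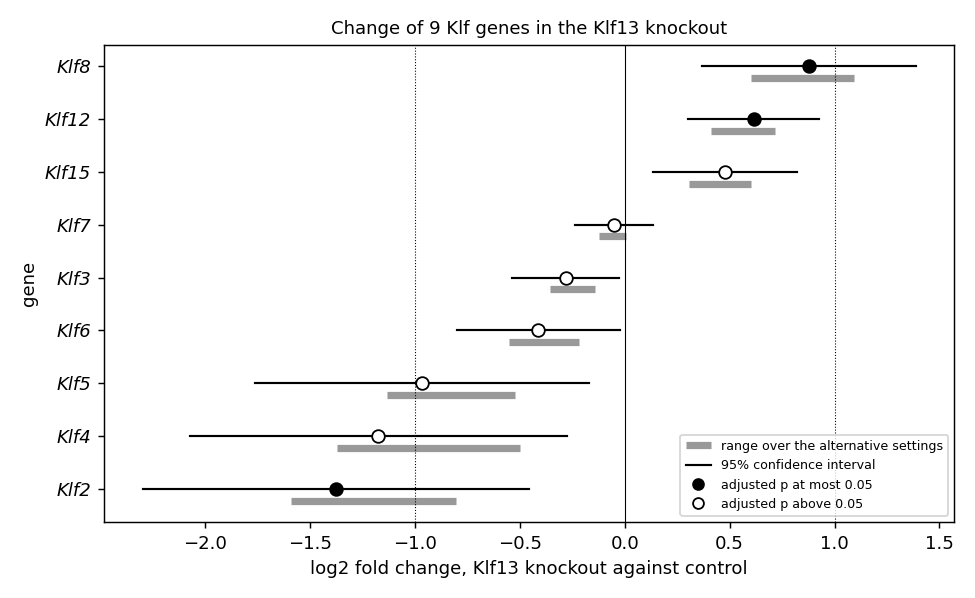
Log2 fold change of each of the 9 Klf genes (horizontal axis, Klf13 knockout against control) with its 95% confidence interval (black line) and the range over 17 alternative settings (grey bar). Filled points, Klf8, Klf12 and Klf2, passed an adjusted p of 0.05, and dotted lines mark a log2 fold change of 1 in either direction.

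Klf2 (ENSMUSG00000055148), known for keeping endothelial cells and lymphocytes quiescent, lies on chromosome 8 from 72319033 to 72321656. Raw counts were only 20, 49, 69 and 79 for the controls and 12, 38 and 24 for the knockouts. Normalization turned these into 27.0, 49.3, 78.9 and 74.0 for the controls, and 21.7, 26.1 and 18.3 for the knockouts. The groups did not overlap, but control replicate 1 was within 1 normalized count of knockout replicate 2. Klf2 fell by 1.38 on the log2 scale (standard error 0.40, adjusted p = 0.0419, edgeR). This call was lost in 11 of 17 alternative settings, among which the adjusted p ran from 0.00759 to 0.223. The adjusted p in edgeR was 0.105 with the replicate block, where control replicate 4 adds nothing and the log2 fold change was -1.19. Without control replicate 2, 3 or 4 it was 0.0614, 0.0770 and 0.0973, and without knockout replicate 1, 2 or 3 it was 0.118, 0.0927 and 0.130 (edgeR), while the log2 fold change stayed between -1.59 and -1.19 when each library was left out. With control replicates 1 and 2 only, the log2 fold change was -0.80 (adjusted p = 0.223, edgeR).

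Klf4 (ENSMUSG00000003032), a reprogramming factor that is also induced in endothelial and myeloid cells, lies on chromosome 4 from 55527143 to 55532466. Controls reached 64.8, 53.3, 110 and 147 normalized counts, knockouts only 32.5, 41.9 and 48.7. All knockouts were below all controls, and again control replicates 3 and 4 were highest. Its log2 fold change, -1.17 (95% interval -2.07 to -0.27), did not pass (adjusted p = 0.0644, edgeR). It passed in DESeq2's Wald test (adjusted p = 0.0170) and without control replicate 2 (adjusted p = 0.0341, edgeR), and the 17 alternative settings reached up to 0.292.

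Klf5 (ENSMUSG00000005148), a factor of proliferating epithelial and smooth muscle cells, lies on chromosome 14 from 99298691 to 99313405. Normalized counts of 25.7, 38.2, 57.2 and 54.3 for the controls stood against 27.1, 24.8 and 16.8 for the knockouts. Control replicate 1 lay below knockout replicate 1, and replicates 3 and 4 were again the highest. This gave a log2 fold change of -0.97 (95% interval -1.76 to -0.17, adjusted p = 0.0807, edgeR). The gene had 15 to 58 raw counts per library. DESeq2's Wald test and the fit without control replicate 1 gave adjusted p of 0.0499 and 0.0419 (the latter in edgeR), and the other settings reached up to 0.415.

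Klf6 (ENSMUSG00000000078), on chromosome 13 from 5861489 to 5870393, showed 2279, 2166, 3269 and 2490 normalized counts for controls, and 1787, 1689 and 2270 for knockouts. Knockout replicate 3 reached the lower controls, and control replicate 3 was the highest library. Here the log2 fold change amounted to -0.41 (95% interval -0.80 to -0.02, adjusted p = 0.117, edgeR). Without control replicate 3 it was -0.27 (adjusted p = 0.164, edgeR). With the replicate number as a block, again without a contribution of control replicate 4, the log2 fold change was -0.41 and passed (adjusted p = 0.0129, edgeR), whereas the other settings did not and reached up to 0.362. In the gp130 and STAT3 list, 13 of 14 genes were tested, and 1 rose, 1 fell and 11 did not pass. Il6st, which encodes gp130, rose from 9548 ± 1050 to 12410 ± 564 normalized counts (log2 fold change 0.38, adjusted p = 0.0238, edgeR), whereas Stat3 fell from 8965 ± 1060 to 6783 ± 462 (log2 fold change -0.40, adjusted p = 0.0266, edgeR). Il6st was lowest in control replicates 3 and 4 and highest in knockout replicate 2, as were the summed markers of astrocytes and neurons given below. Stat3 was highest in control replicates 3 and 4. The part of other cell types in these values was not tested. Jak1 was at 4479 ± 534 and 4387 ± 382, and Kpna1, encoding an importin described as a target of Klf6 in oligodendrocytes, was at 4031 ± 136 and 4055 ± 54.2 normalized counts. The interleukin 6 receptor gene Il6ra had the largest value of this list, -0.67, and did not pass (adjusted p = 0.388, edgeR).

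Klf7 (ENSMUSG00000025959), a factor of neurite outgrowth on chromosome 1 from 64029447 to 64122282, was the most even of the 9 genes. Controls had 2671, 2515, 2227 and 2495 normalized counts, knockouts 2477, 2197 and 2502, so that the groups covered nearly the same range. A log2 fold change of -0.05 resulted (adjusted p = 0.695, edgeR), and the 95% interval from -0.24 to 0.13 gives the limits of a change that these libraries allow. The antisense genes Gm26649 and Gm13748 share 3196 and 4 exonic bases with Klf7 and held 0 and 67 counts in all libraries together. If reads were counted without strand, those within the shared bases may have been assigned to neither gene, which would lower the level of Klf7 and its place in the order. Of 4 tested genes tied to Klf7 in axon growth and cell cycle exit, 2 rose, 1 fell and 1 did not pass. The adhesion molecule gene L1cam rose from 262 ± 81.8 to 612 ± 102 normalized counts, and the kinase inhibitor genes Cdkn1b and Cdkn1a had log2 fold changes of 0.36 and -1.18 (adjusted p = 0.0132, 0.0217 and 0.00422 for the 3 genes, edgeR). L1cam was lowest in control replicates 3 and 4 and highest in knockout replicate 2, as were the summed neuron markers, whose part in its values was not tested. Gap43 had a value of 0.28 and did not pass.

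Klf15 (ENSMUSG00000030087), on chromosome 6 from 90462576 to 90475238, showed 338, 418, 279 and 309 normalized counts for controls but 469, 497 and 440 for knockouts. All knockouts were above all controls, by a narrow margin over control replicate 2. The difference of 0.48 ± 0.15 on the log2 scale (standard error) narrowly missed the threshold, as its adjusted p was 0.0521 in edgeR. It passed in 6 of 17 alternative settings, with adjusted p of 0.0305 in DESeq2's Wald test, 0.0385 in limma-voom and 0.0174 without control replicate 2 in edgeR, and was at 0.205 with control replicates 1 and 2 only. Among genes of amino acid and glucose metabolism known as Klf15 targets, 4 of 5 were tested, and 3 rose, 0 fell and 1 did not pass. Prodh, for the first enzyme of proline breakdown, rose from 210 ± 75.8 to 459 ± 54.0 normalized counts (log2 fold change 1.13, adjusted p = 0.0261, edgeR), and Slc2a4 and Aldh6a1 rose with log2 fold changes of 0.70 and 0.31 (adjusted p = 0.0481 and 0.0115, edgeR). Bcat2, for the mitochondrial aminotransferase of branched-chain amino acids, was at 554 ± 125 and 540 ± 46.8 normalized counts. The 3 genes that rose were lowest in control replicates 3 and 4 and highest in knockout replicate 2, as were the summed markers of astrocytes and neurons given below, and the part of these cells in the values was not tested. Of 9 genes of the glucocorticoid response, 1 rose, 1 fell and 7 did not pass. The metallothionein gene Mt2 rose (log2 fold change 1.07, adjusted p = 0.000411, edgeR) and Errfi1 fell (log2 fold change -0.92, adjusted p = 0.00116, edgeR). The 3 most abundant genes of the list, Sgk1, Ddit4 and the receptor gene Nr3c1, had values of -0.09, -0.05 and -0.07, and the classical targets Fkbp5, Tsc22d3 and Per1 had -0.34, -0.08 and -0.29 without passing.

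Several of the 9 genes, above all Klf2, Klf4 and Klf6, are also early response genes. In a list of 16 other immediate early genes, 0 rose, 3 fell and 13 did not pass, with a median log2 fold change of -0.28. Fos fell from 1939 ± 513 to 953 ± 196 normalized counts, and Egr1 and Egr2 had log2 fold changes of -0.45 and -1.54 (adjusted p = 0.0200, 0.0289 and 0.0176 for the 3 genes, edgeR). Jun and Jund, which with Fos were the most abundant, had values of -0.33 and -0.13 and did not pass. The 16 genes summed to 292 to 455 CPM in the controls, with replicate 3 highest, and 260 to 333 CPM in the knockouts. Among the controls, Fos (1527, 1465, 2436 and 2326 normalized counts) and Egr2 (74.3, 67.4, 122 and 120) were highest in replicates 3 and 4, the libraries with the highest fibroblast and mural markers, whose part in these values was not tested. Egr1 did not follow this order (741, 664, 824 and 693), and Fosb was lowest in the same replicates (111, 125, 51.4 and 74.9). The list as a whole thus shared no common order.

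The SIN3-interacting relatives moved in both directions as well. Of the 5 tested, Klf11 and Klf16 rose with log2 fold changes of 0.66 and 0.46 (adjusted p = 0.00267 and 0.0367, edgeR), and Klf10 fell with -0.50 (adjusted p = 0.0330, edgeR) beside the targeted gene. Klf9 was at 7631 ± 881 and 6513 ± 493 normalized counts and did not pass (adjusted p = 0.140, edgeR). Klf1, Klf14 and Klf17 had at most 8.04 normalized counts in any library and were not tested. Sp proteins share the zinc finger type and bind the same GC-rich elements. Of 7 tested Sp genes, 2 rose, 0 fell and 5 did not pass. Sp8, a factor of interneuron precursors, rose from 485 ± 324 to 2250 ± 726 normalized counts (log2 fold change 2.22, adjusted p = 0.0252, edgeR), and Sp4 rose with 0.32 (adjusted p = 0.0312, edgeR). The widely expressed Sp1 and Sp3 had 2931 ± 169 and 3267 ± 69.6 normalized counts among controls, against 2760 ± 283 and 3049 ± 128 among knockouts.

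Since these are bulk libraries, fewer cells of a type and less RNA per cell cannot be told apart. Except for Klf7, the Klf genes varied among the 4 controls in the same sense as between the groups. Genes with negative fold changes, Klf2, Klf4, Klf5, Klf6 and Klf3, had their highest values in control replicates 3 and 4, where Klf8, Klf12 and Klf15 were lowest. The same 2 libraries had the highest sums of fibroblast and mural markers and of endothelial markers. Among the knockouts, replicate 3 had the highest of both sums, and there Klf3, Klf4 and Klf6 were highest but Klf2 and Klf5 were lowest. For the 10 fibroblast and mural genes, of which 1 fell (Dcn) and 9 did not pass, the median log2 fold change was -1.75 and the sums were 441 to 1800 CPM and 203 to 457 CPM. Dcn was at -3.05 on the log2 scale (adjusted p = 0.0437, edgeR), and the abundant Fn1, Col1a1 and Col1a2 were at -1.66, -2.30 and -2.64 without passing (adjusted p = 0.0570, 0.0565 and 0.0546, edgeR). Of 10 endothelial genes, 5 were tested, 1 fell (Cdh5, -2.75, adjusted p = 0.0483, edgeR) and 4 did not pass, Flt1 and Kdr (-0.81 and 0.29) among them, with sums of 13.2 to 27.9 CPM and 11.4 to 14.6 CPM. The defining endothelial gene Cldn5 was at 0 in all controls, and Erg, Tie1 and Emcn had group means of at most 1.51 normalized counts. Other genes of the list were detected. Pecam1 was at 18.1 to 90.3 normalized counts over the 7 libraries, highest in control replicate 3, and Egfl7 at 74.6 to 117, and neither passed. Tek reached 10.8 and was not tested. For the 14 microglia and macrophage genes, 0 passed, the median was -0.42 and the sums were 675 to 2950 CPM and 696 to 1420 CPM. C1qa, C1qb and Itgam were at -0.41, -0.32 and -0.90. Their sums were 2950 CPM in control replicate 3 and 754 CPM in control replicate 4.

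In the other direction, 8 of 10 neuron genes and 8 of 10 astrocyte genes rose and 0 fell. For the neuron genes the median was 1.54 on the log2 scale, with sums of 929 to 1330 CPM in the controls and 1770 to 2220 CPM in the knockouts, with Dcx showing the largest change (2.43), Map2 rising by 0.74 and Elavl3 at -0.46 without passing. The astrocyte genes had a median of 0.65 and sums of 3900 to 4710 CPM and 6060 to 7010 CPM, with Gja1 showing the largest change (1.44), Gfap rising by 0.66, and Glul and S100b at 0.53 and -0.54 without passing. Klf8, Klf12 and Klf15 were higher in the same libraries. The part of any of these cell types in the values of the 9 Klf genes was not tested.

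**Figure D4:**
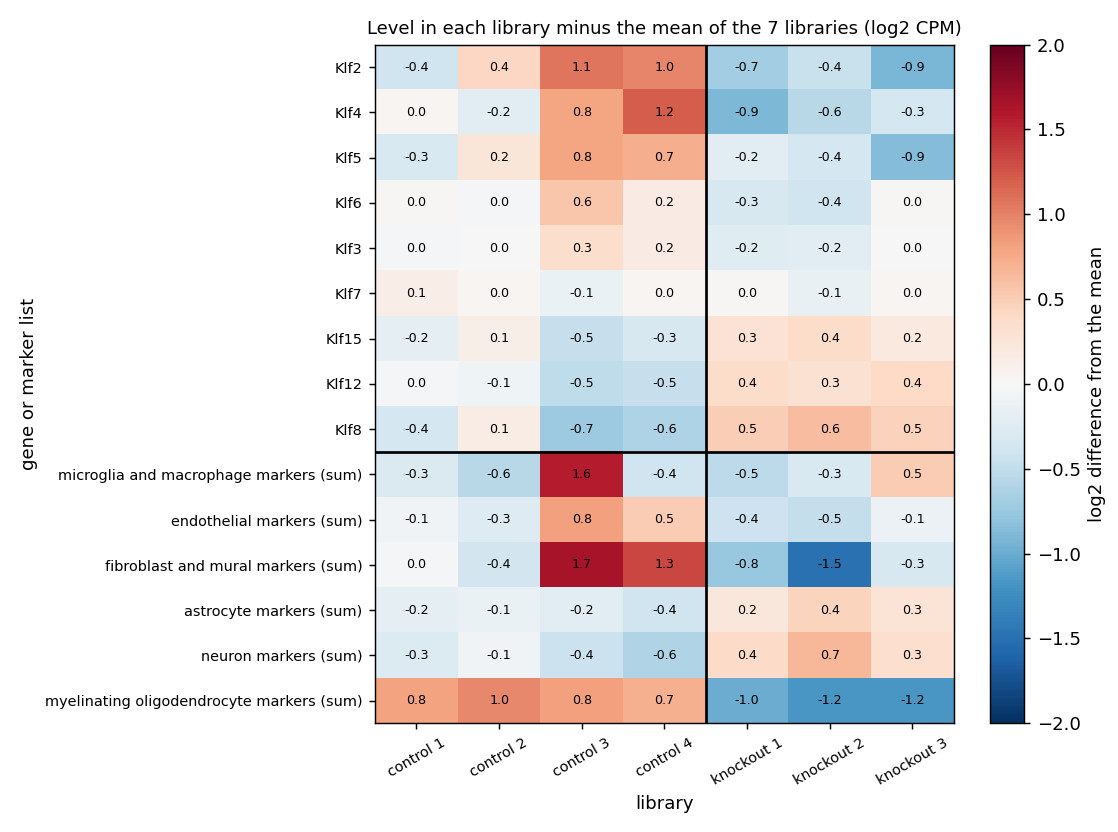
Level of each of the 9 Klf genes and summed level of 6 lists of cell type markers in each library, as the difference in log2 CPM from the mean of the 7 libraries (red higher, blue lower, value printed in each cell). Klf2, Klf4 and Klf5 are highest in control replicates 3 and 4, as are fibroblast and mural markers, and Klf8, Klf12 and Klf15 show the opposite pattern among the controls. Among the knockouts, fibroblast and mural markers are highest in replicate 3, where Klf4 is highest but Klf2 and Klf5 are lowest.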

How the data were processed

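The deposited files hold whole-number counts per gene, 1 file per library. Per the labels and the methods, the authors trimmed reads with Trimmomatic 0.36, mapped them with STAR 2.5.2b to the mouse genome (GRCm38 in the submitters' processing notes) and used Subread 1.5.2 to count exonic reads with 1 mapping position. The annotation release and strand setting are not given in the sources used here. Unique counting affects genes with near-identical copies.

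From these counts, genes were filtered with filterByExpr, scaled by TMM and compared with edgeR 4.0.16 (quasi-likelihood, robust, group as the only term) in R 4.3.3, with Benjamini-Hochberg adjustment over 18352 genes. The fit was tested on simulated data, in which all genes had the same spread beyond counting error. This does not cover genes whose libraries spread as widely as those of Klf2. Symbols were found for 48970 of 49315 identifiers. A count of 0 would allow up to 3 counts, at most 1.22e-05 percent of a library, for counting error only. The 9 genes, lists and settings were chosen with earlier results of these data known. From each list the 3 most abundant tested genes and that with the largest fold change were to be named. A few of these are not reported here. Other genes named from a list were chosen after their values were seen, and so was Eif2s3y. Promoter sequences are RefSeq's on GRCm38.p6. A planned comparison of protein sequences was not run.

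Deviations from the group means, across genes, correlated at 0.11, 0.46 and 0.17 between libraries with the same replicate number and at -0.53 to 0.20 otherwise. Although 0.11 and 0.17 lay within the range of the other pairs, the number was treated as a pairing and fitted as a block in a separate model. The labels do not say whether libraries with the same number belong together. Other alternatives were DESeq2 1.42.0, limma-voom (limma 3.58.1), other scaling factors and filters, the ribosomal RNA share (6.03% to 18.0% of counts on Gm42418, Gm23935 and Lars2) as a covariate, and each library left out.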

Additional observations from a re-analysis of the deposited data

How the results depend on the processing

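Over the 9 genes and 17 alternative settings, 153 values were recomputed. Of these, 123 kept their direction and their side of an adjusted p of 0.05, 16 lost and 12 gained the call, and 2 changed sign. Both sign changes concerned Klf7, whose log2 fold change ran from -0.10 to 0.008 when each library was left out. The number of genes that fell at an adjusted p of 0.05, 1 as reported, was 3 in DESeq2's Wald test, 2 with the replicate block, and 0 in limma-voom, with total counts only, with the ribosomal RNA share as covariate and with control replicates 1 and 2 only, a setting chosen after seeing the data. With each library left out it ran from 0 to 2. The number that rose, 2 as reported, was 3 in DESeq2's Wald test, in limma-voom, with upper quartile factors, with at least 10 counts in every library and with the ribosomal RNA share as covariate, 1 with control replicates 1 and 2 only, and 1 to 3 with each library left out. With a log2 fold change of at least 1 in addition, 1 gene was lower as reported, 2 in DESeq2's Wald test, and 0 in limma-voom, with total counts only, with the replicate block, with the ribosomal RNA share as covariate and with control replicates 1 and 2 only, and 0 to 2 genes with each library left out. By the same limit 0 genes were higher, and 0 to 1 with each library left out. The replicate block ended the call of Klf2 and added Klf3 and Klf6, and it changed no other call of the 9 genes. Over all genes, 2122 rose and 2246 fell as reported, 850 and 1317 without knockout replicate 2, 1209 and 1254 without knockout replicate 1, and 1177 and 1489 with control replicates 1 and 2 only. DESeq2's Wald test gave 2283 and 2661 of 21775 genes. Of 18352 genes, limma-voom gave 2270 and 2231, the replicate block 1741 and 2042, total counts only 1870 and 1716, upper quartile factors 2263 and 1744, and the ribosomal RNA share 2673 and 2482. The counts among the 9 genes cannot be set apart from these. The low counts of Klf2, Klf4 and Klf5 limit what can be said of them. The causes of the changes between settings were not tested.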

Other observations

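Over the 7 libraries and with the group means taken off, Klf8 and Klf15 varied together (Pearson r = 0.98 of log2 CPM), and so did Klf3 and Klf6 (0.95) and Klf2 and Klf5 (0.94), while Klf2 and Klf12 varied in opposite directions (-0.91). These values describe 7 libraries in which 2 controls stood apart by their markers, and Klf2 and Klf5 rest on low counts.

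Among 9928 genes of at least 10 CPM on average, those with the most similar course over the same 7 libraries were Scaf4 and Zfp711 for Klf8 (r = 0.99 and 0.97), Zfp81 and Zfp704 for Klf12 (0.99 and 0.99) and Tssc4 and Prkar1a for Klf2 (0.99 and 0.99). These genes were picked as the highest values among all of these genes and are given as a description.

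Sp9, which is expressed with Sp8 in interneuron precursors, showed 624, 1148, 414 and 170 normalized counts for controls but 1807, 3595 and 1466 for knockouts, a log2 fold change of 1.96 that did not pass (adjusted p = 0.0517, edgeR). For Sp8 the values were 605, 881, 298 and 155 and 1943, 3079 and 1728. Both genes had their lowest values in control replicates 3 and 4 and their highest in knockout replicate 2, as had the summed neuron markers.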
